A study of Mus musculus with 12 samples.

Results

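Semaglutide was added to high-intensity interval training (HIIT) in diabetic mice, and muscle RNA of the animals given both (the combination) was compared with muscle RNA of animals that only trained. The comparison rests on 6 of the 12 libraries of the study, 3 from the combination group and 3 from the HIIT group. It covers the 10666 genes, of 22390 features in the deposited table, that reached an FPKM of 1 (fragments per kilobase of transcript length, corrected for sequencing depth) in at least 3 of the 12 libraries. All log2 differences below are combination minus HIIT on log2(FPKM + 1) unless another comparison is named.

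The study crossed training with semaglutide, a long-acting agonist of the receptor for the gut hormone GLP-1, in male C57BL/KsJ db/db mice. These animals carry a defective leptin receptor, overeat and develop diabetes. They were 8 weeks old at the start, and the interventions lasted 8 weeks. Every library compared here came from db/db animals, so no non-diabetic reference is included. HIIT animals did 10 treadmill bouts per session, each 4 min long and run at 85 to 90% of maximal speed and separated by 2 min of slower running at 50 to 60%, on 5 days a week, while the titles speak of 60 min of exercise. Combination animals followed the same training and also received subcutaneous semaglutide every day, given as 30 nmol/kg in the protocol and as 0.05 mg/kg in the titles, which were not reconciled. No injection is named for the HIIT animals, so the drug and the act of injecting cannot be told apart. The other 6 libraries, 3 from normally reared controls and 3 from semaglutide alone, entered the estimate of the spread and serve as a comparison of the same drug without training.

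The labels call the tissue muscle, and the protocol lists soleus among the organs taken. Soleus of the mouse is known as a slow muscle, but the slow myosin heavy chain Myh7 made up 0.0559 to 0.707% of what the 4 adult myosin genes summed to in these 6 libraries, and the fast chain Myh4 86.5 to 94.8%. The libraries held an estimated 17.2, 19.3 and 17.3 M fragments under HIIT and 18.4, 21.2 and 18.1 M in the combination. Replicates correlated at r of 0.970 to 0.979 under HIIT and 0.977 to 0.991 in the combination, across genes. Mitochondrially encoded RNA took 32.4, 32.9 and 42.0% of the FPKM under HIIT and 33.9, 34.4 and 35.7% in the combination. Fewer genes reached an FPKM of 1 in the combination (9902, 9246 and 9181) than under HIIT (10657, 9920 and 9998), although the combination libraries were not shallower as a group. In bulk RNA, fewer cells of a type and less RNA per cell cannot be told apart.

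Skeletal muscle mass follows the balance of protein synthesis and breakdown. When insulin signalling is low or glucocorticoids are high, FoxO transcription factors and the glucocorticoid receptor switch on muscle-specific ubiquitin ligases, autophagy genes and brakes on translation. Between the fibres, fibroblasts and fibro-adipogenic cells lay down collagen, and inside the fibres the ratio of free to filamentous actin controls MRTF and SRF, a pair of factors that drive cytoskeletal genes. The receptor for GLP-1 is known from pancreatic beta cells and brain. Its gene, Glp1r, was listed at 0 in all 6 libraries.

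Semaglutide on top of training went with higher levels of the atrophy ligases Fbxo32 and Trim63, several FoxO targets and glucocorticoid-induced genes, and with lower levels of several collagens, the actin gene Actg1, the SRF coactivator gene Mrtfa and the clock genes Nr1d1 and Dbp. At a Benjamini-Hochberg adjusted p of 0.05 from limma, 321 genes differed between the groups (3.01% of those tested), of which 112 were higher (1.05%) and 209 lower (1.96%) in the combination. The higher genes rose by 0.34 to 1.66 and the lower genes fell by 0.32 to 2.20 on the log2 scale, and 16 of the former and 33 of the latter moved by more than 1. In all 321 the 3 combination libraries lay outside the range of the 3 HIIT libraries, which held for 26.2% of all genes tested (7.49% higher and 18.7% lower). The median gene stood at -0.12, so a difference of that size below 0 is the level of the whole table. Of all genes 67.6% stood below 0, and at an unadjusted p of 0.05 20.4% were lower and 6.7% higher, the shares to set beside the counts of lists given at that p. After TMM rescaling, which moved that median to -0.03, 634 genes were called, 378 higher and 256 lower, so the share of higher calls went from 34.9 to 59.6%.

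The number of calls depended on single libraries. Without combination replicate 1 there were 1574 calls, and without HIIT replicate 2 there were 424. Without combination replicate 2 the number was 18, without combination replicate 3 it was 40, and without HIIT replicates 1 and 3 it was 69 and 67. Leaving out any control or semaglutide library, which enter through the estimate of the spread, gave 196 to 256. Of the 52 called genes that the naming rule picks, 8 were called in each of the 12 fits. Among all 321, calls on 18 genes held in all 12, namely 3425401B19Rik, Actg1, Aimp2, Ank3, Calm2, Col6a3, Exd2, Gemin2, H2az1, Hps5, Jup, Mrtfa, Rbl2, Samd4, Sec14l5, Tacc2, Tmem229b and Ulk1. With the replicate number as a block within these 6 libraries 791 genes were called, 155 higher and 636 lower, and 258 of the 321 were among them. This fit is the replicate block named below. Unpaired and with these 6 libraries alone, limma called 9 genes.

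**Figure D1:**
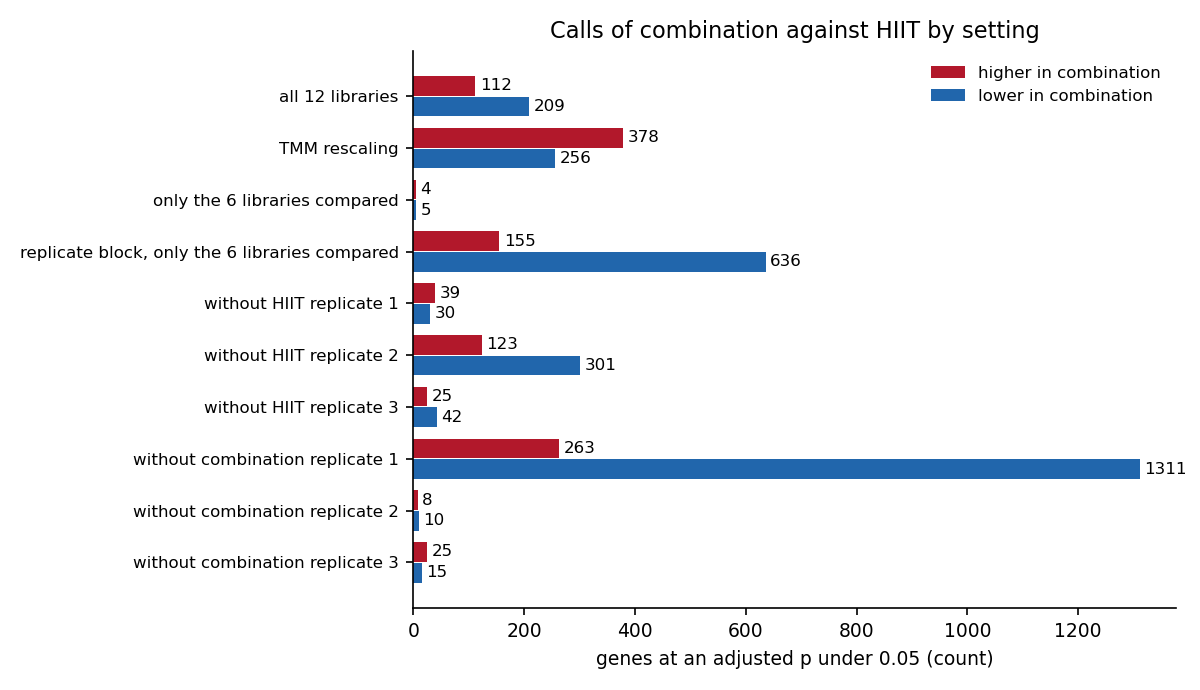
Numbers of genes called higher and lower in the combination than under HIIT (adjusted p under 0.05, limma) in each fit, with bars from 0. The fit with all libraries called 112 higher and 209 lower, and the total ran from 9 with only the 6 libraries compared to 1574 without combination replicate 1.

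Among ubiquitin ligases and FoxO targets, 8 of 27 genes tested rose and none fell, against 1.05% of all genes called higher. The median of the list was 0.43, beside -0.12 for all genes, and 24 of the 27 stood above 0. Fbxo32, which encodes the muscle ubiquitin ligase atrogin, was at 39.4, 38.7 and 55.3 FPKM under HIIT, against 113, 90.8 and 109 in the combination. The lowest combination library lay well above the highest HIIT library, and the difference was 1.23 ± 0.20 (limma SE, n = 3 per group, adjusted p = 0.0183). Trim63, whose product MuRF tags myosin and other sarcomere proteins for breakdown, was at 147, 157 and 147 FPKM under HIIT, against 429, 297 and 287 in the combination. The HIIT libraries were close to each other, combination replicate 1 was the highest, and the groups did not overlap (1.14 ± 0.22, adjusted p = 0.0284). Trim54, a relative of Trim63 that binds microtubules and the sarcomere, went from 166, 208 and 139 FPKM to 303, 340 and 300 (0.89 ± 0.14, adjusted p = 0.0172).

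Upstream of these ligases, Foxo3, a FoxO factor of muscle atrophy, was at 4.76, 4.10 and 4.28 FPKM under HIIT, against 7.65, 6.66 and 6.15 in the combination (0.54 ± 0.12, adjusted p = 0.0405). Its relative Foxo1 did not pass, with 6.08, 4.75 and 4.77 FPKM under HIIT and 13.5, 5.05 and 7.52 in the combination. There combination replicate 1 stood apart from the other two, and the interval of the difference was -0.12 to 1.24 (adjusted p = 0.262). The F-box gene Fbxo31 rose by 0.53 ± 0.09 (adjusted p = 0.0172) and the kelch-family gene Klhl38 by 1.03 ± 0.22 (adjusted p = 0.0362). Eif4ebp1, which encodes a repressor of cap-dependent translation, rose from 21.6, 19.5 and 21.5 FPKM to 36.2, 31.5 and 29.9 (0.62 ± 0.11, adjusted p = 0.0224). Klhl38 had an adjusted p of 0.0704 with the replicate block and was not called there. Without combination replicate 2 none of the 8 was called, and the adjusted p of Trim63 was 0.0936. Fbxo32 was also lost without HIIT replicate 1 or combination replicate 3 (adjusted p up to 0.0738), and Trim63 without HIIT replicate 1, HIIT replicate 3 or combination replicate 3. With both replicates numbered 1 left out, Trim63 had an adjusted p of 0.0605 and 6 list members were called.

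The proteasome itself, which degrades what the ligases tag, showed no call. Of 32 subunit and activator genes tested, limma called none at an adjusted p of 0.05, 9 were higher and none lower at an unadjusted p of 0.05, beside 6.7% and 20.4% of all genes, and the median was 0.03. In 8 of the 32 the combination libraries all lay above the HIIT libraries, beside 7.49% of all genes. Psmd2, the subunit with the smallest p, differed by 0.36 (adjusted p = 0.066). After TMM rescaling 5 of the 32 were called higher, and without combination replicate 1 there were 2.

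Of 27 genes of the glucocorticoid receptor and its targets, 5 rose and none fell, against 1.05% of all genes called higher, and the median was 0.39. At an unadjusted p of 0.05, 11 were higher and 2 lower. Sgk1, a serum- and glucocorticoid-regulated kinase, was at 67.7, 80.6 and 73.3 FPKM under HIIT, against 135, 157 and 105 in the combination (0.81 ± 0.14, adjusted p = 0.020). Fkbp5, a chaperone that dampens the glucocorticoid receptor and is a standard readout of its activity, went from 47.4, 66.0 and 45.0 FPKM to 96.7, 97.6 and 92.5. The 3 combination libraries were nearly equal and all above the HIIT libraries (0.86 ± 0.20, adjusted p = 0.0451). Cebpd, which encodes a transcription factor of the acute phase, was at 9.51, 4.32 and 5.32 FPKM under HIIT, against 24.3, 22.4 and 11.9 in the combination (1.48 ± 0.31, adjusted p = 0.0353). Its relative Cebpb rose by 0.48 ± 0.11 (adjusted p = 0.0417, and 0.0565 with the replicate block). Pik3r1, the regulatory subunit of the insulin-responsive PI 3-kinase and a known glucocorticoid target in muscle, rose from 14.2, 17.4 and 21.0 FPKM to 47.2, 31.2 and 39.3 (1.11 ± 0.25, adjusted p = 0.0424).

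Other well-known glucocorticoid targets did not pass. Per1 differed by -0.01 ± 0.34 (adjusted p = 0.985), with 23.4, 20.4 and 15.2 FPKM under HIIT and 37.5, 15.1 and 12.3 in the combination. Klf15, a factor of amino acid breakdown, differed by 0.50 ± 0.20 (adjusted p = 0.139), and Ddit4, an inhibitor of mTORC signalling, by 1.79 ± 0.50 (adjusted p = 0.072, and 0.0113 with the replicate block). The receptor gene Nr3c1 was level, at 12.9, 9.23 and 11.3 FPKM under HIIT and 12.2, 11.7 and 9.74 in the combination (0.01 ± 0.14, interval -0.29 to 0.32). Combination replicate 1 had the highest value of the 6 for Per1, Klf15 and Ddit4. Without combination replicate 2 the adjusted p was 0.0863 for Sgk1 and 0.142 for Cebpd, and without HIIT replicate 1 it was 0.127 for Pik3r1. With both replicates numbered 1 left out, 4 of the 27 were called higher, and with the replicate block 7 were called higher and 1 lower.

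The upstream sequences of Trim63 and Sgk1 are shown because a search of all RefSeq windows found palindromic glucocorticoid response elements in them, and they belong to genes called higher. Each window is the 250 bases before the annotated start in RefSeq, on GRCm38.p6, which is not the build of the deposited values. It is written 5′ to 3′ on the strand of the gene, with the matches in capitals. The Trim63 window is chr4:134314870-134315119 on the plus strand and the Sgk1 window chr10:21993640-21993889 on the plus strand, upstream of 1 of several Sgk1 starts.
Trim63: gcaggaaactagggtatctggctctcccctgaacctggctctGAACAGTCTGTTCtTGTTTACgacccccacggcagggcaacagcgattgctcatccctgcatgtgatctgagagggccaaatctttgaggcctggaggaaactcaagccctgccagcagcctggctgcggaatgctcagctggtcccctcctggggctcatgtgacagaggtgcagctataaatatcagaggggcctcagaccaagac
Sgk1: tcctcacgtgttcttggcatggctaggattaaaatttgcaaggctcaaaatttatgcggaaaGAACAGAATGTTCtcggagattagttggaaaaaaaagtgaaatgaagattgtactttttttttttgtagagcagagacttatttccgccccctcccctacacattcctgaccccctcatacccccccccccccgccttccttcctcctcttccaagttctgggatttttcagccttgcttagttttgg
The glucocorticoid motif searched was GNACA, then 3 bases of any kind, then TGTNC, on both strands, and it reads the same on both. It matched bases 208 to 196 before the start of Trim63 and bases 188 to 176 before that of Sgk1. In Trim63 a FoxO motif, searched as GTAAACA on both strands and found on the reverse strand, lies next to it at bases 194 to 188. Windows of this length hold the glucocorticoid motif in 127 of 32851 cases (0.387%) and the FoxO motif in 1040 (3.17%). Counted per gene, over any of its windows, 31 of 8317 genes tested hold the glucocorticoid motif (0.373%) and 215 the FoxO motif (2.59%). Of 91 genes called higher that have a window, 3 hold the glucocorticoid motif (Sgk1, Trim63 and Fem1a) and 3 the FoxO motif (Trim63, Metap2 and Etl4). Among 166 genes called lower, 1 and 4 do. Fem1a had an adjusted p of 0.0576 with the replicate block. A match describes the letters of the window and was not tested as a binding site.

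Insulin signalling and glucose uptake had 2 calls among 32 genes, both higher, against 1.05% of all genes called higher, and a median of 0.08. At an unadjusted p of 0.05, 8 were higher and 3 lower, beside 6.7% and 20.4% of all genes. After TMM rescaling 5 were called higher, and with the replicate block 3. Without combination replicate 1, 4 were called higher and 2 lower. Beside Pik3r1 the call was Tbc1d1, a Rab GTPase-activating protein that holds back the glucose transporter until it is phosphorylated. Tbc1d1 was at 11, 20.4 and 15.2 FPKM under HIIT, against 26.5, 40.6 and 30.1 in the combination (1.03 ± 0.20, adjusted p = 0.0284, and 0.112 without combination replicate 2). The transporter gene itself, Slc2a4, was at 135, 183 and 139 FPKM under HIIT and 239, 198 and 194 in the combination. The groups did not overlap there, and the difference of 0.47 ± 0.13 had an adjusted p of 0.0632. The receptor Insr (0.22 ± 0.13) and the substrates Irs1 (-0.38 ± 0.19) and Irs2 (0.05 ± 0.23) did not pass.

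In autophagy, 2 of 31 genes were called, both higher, against 1.05% of all genes called higher, with a median of 0.14 over the list. At an unadjusted p of 0.05, 9 were higher and 3 lower, beside 6.7% and 20.4% of all genes. After TMM rescaling 6 were called higher. Ulk1, the kinase that starts autophagosome formation, was at 10.9, 9.41 and 8.89 FPKM under HIIT, against 19.4, 19.0 and 18.4 in the combination. The values within each group were close together, and the difference of 0.90 ± 0.10 had an adjusted p of 0.00398, the smallest of all genes, shared with 3425401B19Rik and Calm2. Its highest adjusted p with any 1 library left out was 0.0279. Sqstm1, a receptor that carries ubiquitinated cargo to autophagosomes, went from 207, 244 and 198 FPKM to 318, 350 and 321 (0.61 ± 0.14, adjusted p = 0.042, and 0.155 without combination replicate 2).

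**Figure D2:**
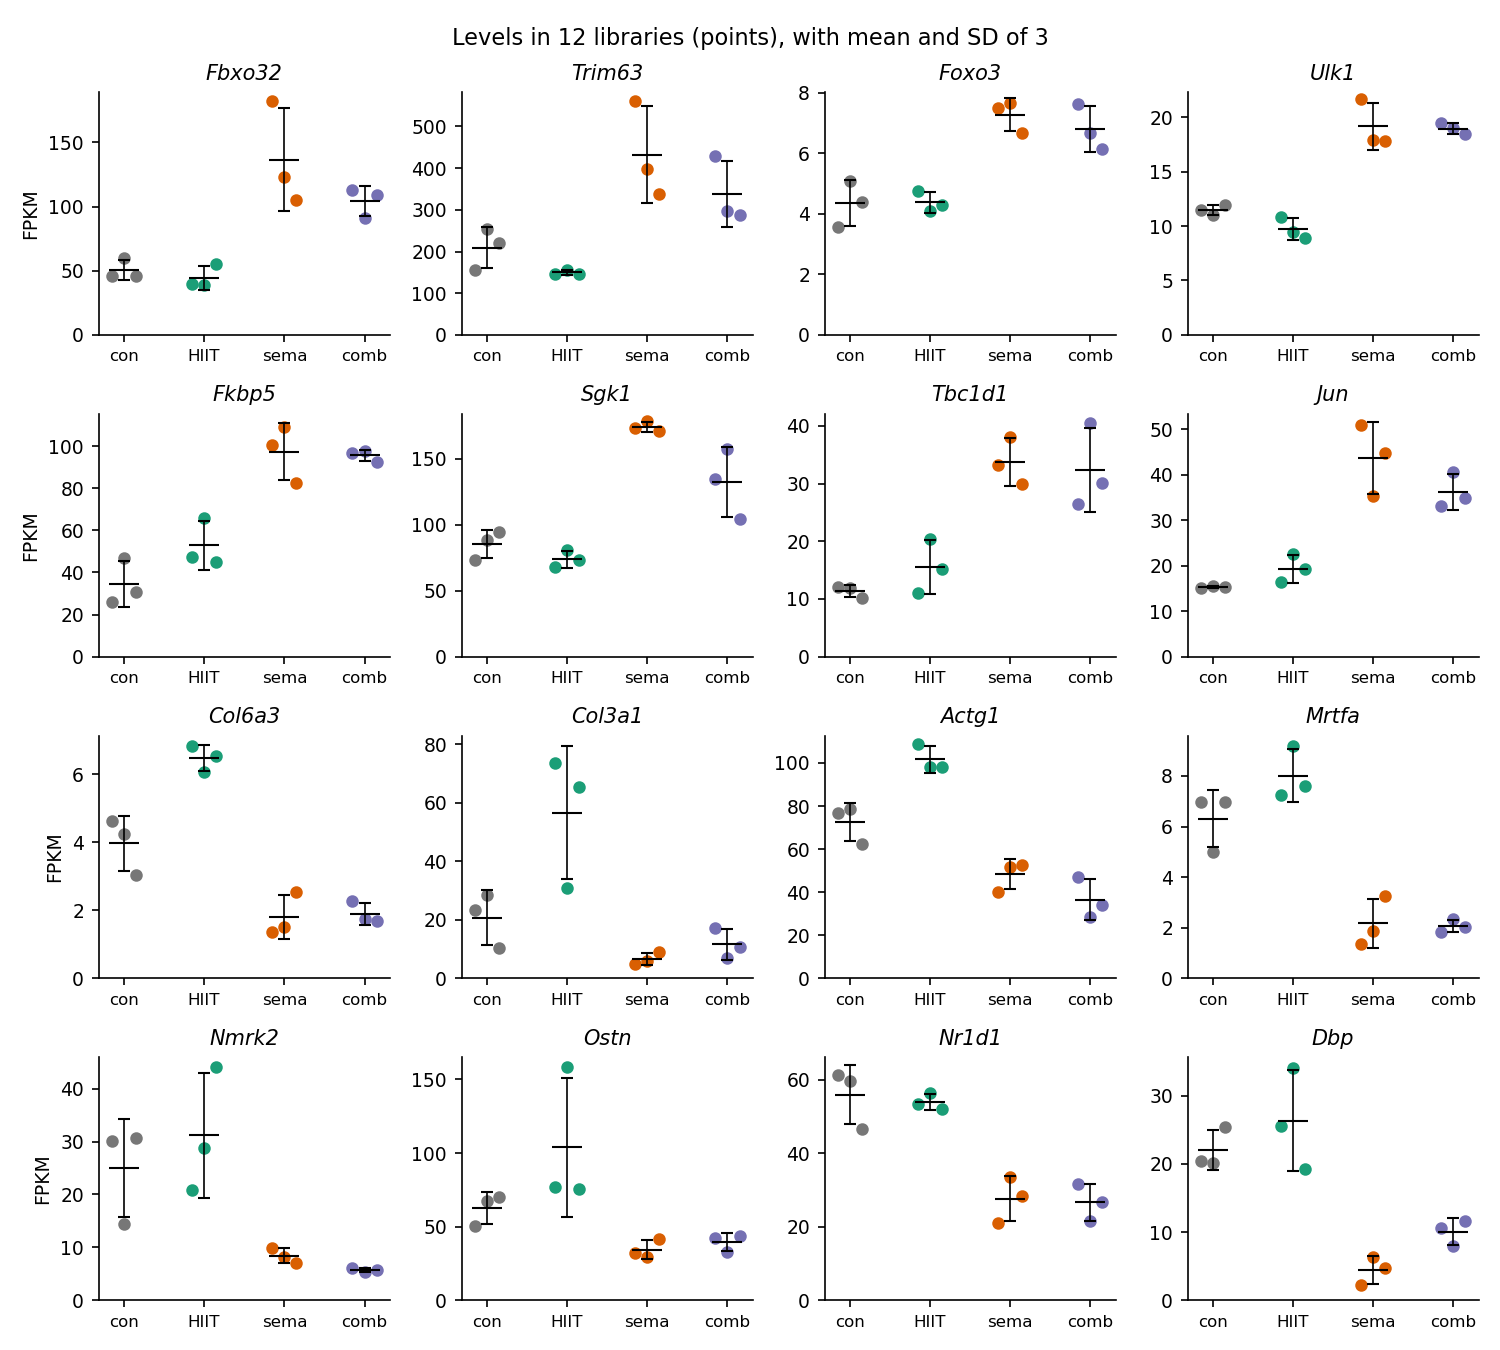
FPKM of 16 genes in each of the 12 libraries (points), with the mean and SD of 3 libraries per group, for control (con), HIIT, semaglutide (sema) and combination (comb). Fbxo32 ran from 38.7 to 55.3 FPKM under HIIT and from 90.8 to 113 in the combination, and Actg1 from 98.0 to 109 and from 28.4 to 46.8.

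The called genes with the largest increase held several of other functions. Arrdc3, an alpha-arrestin that takes part in receptor sorting, had the largest difference of the genes called higher. It went from 11.3, 7.03 and 9.92 FPKM to 33.1, 51.6 and 17.8 (1.66 ± 0.33, adjusted p = 0.0314). Its combination libraries spread widely, and with the replicate block its adjusted p was 0.123. Pnmt, which turns noradrenaline into adrenaline, went from 1.39, 1.69 and 1.27 FPKM to 6.73, 5.46 and 5.03 (1.45 ± 0.24, adjusted p = 0.018). Il6ra, the receptor for interleukin-6, went from 1.72, 1.29 and 1.86 FPKM to 4.11, 5.30 and 4.61 (1.11 ± 0.18, adjusted p = 0.0172). It was the single call among 17 genes of that pathway, beside 1.05% of all genes called higher. Jup, which encodes the junction protein plakoglobin, went from 19.2, 23.2 and 19.5 FPKM to 41.7, 48.0 and 44.6 (1.08 ± 0.13, adjusted p = 0.00461). The uncharacterised 3425401B19Rik went from 31.4, 33.1 and 26.2 FPKM to 58.6, 78.7 and 63.0 (1.11 ± 0.12, adjusted p = 0.00398). Of these, Jup and 3425401B19Rik kept their calls whichever library was left out, while Pnmt reached 0.0858 and Il6ra 0.0859, both without combination replicate 2.

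Among further genes called higher was Prima1, the membrane anchor of acetylcholinesterase. It was at 2.34, 3.97 and 2.50 FPKM under HIIT, against 6.28, 11.3 and 6.4 in the combination (1.17 ± 0.26, adjusted p = 0.0423). The enzyme gene Ache went from 7.97, 7.47 and 5.17 FPKM to 13.4, 11.8 and 9.96 (0.70 ± 0.16, adjusted p = 0.0432). It was the single call among 15 neuromuscular junction genes, whose median was 0.13, beside 1.05% of all genes called higher. Ache lost its call when any of 9 libraries was left out, with an adjusted p of up to 0.15 without combination replicate 2, and Prima1 reached 0.144 there. The immediate early gene Jun rose from 16.4, 22.5 and 19.2 FPKM to 33.2, 40.6 and 34.9 (0.88 ± 0.14, adjusted p = 0.0172), and Btg2, an antiproliferative gene, by 0.87 ± 0.19 (adjusted p = 0.0359). They were the only calls among 23 immediate early genes, where 1.05% of all genes were called higher. Leaving out 1 library took the adjusted p of Jun up to 0.0859 and that of Btg2 up to 0.142. The activin receptor gene Acvr1b, through which myostatin and activins signal, rose by 0.99 ± 0.17 (adjusted p = 0.0201, and up to 0.0936 with 1 library left out). Mstn, which encodes myostatin, differed by 0.28 ± 0.24 (adjusted p = 0.46).

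Of 39 extracellular matrix genes tested, 7 fell and none rose, against 1.96% of all genes called lower. The median was -0.75, and 38 of the 39 stood below 0, where 67.6% of all genes did. In 18 of the 39 the 3 combination libraries all lay below the 3 HIIT libraries, beside 18.7% of all genes. Col3a1, the chain of a fibrillar collagen of loose connective tissue, was at 73.6, 30.8 and 65.4 FPKM under HIIT, against 17.1, 6.88 and 10.8 in the combination. The HIIT libraries ranged widely and still lay above every combination library (-2.18 ± 0.44, adjusted p = 0.0343). Col6a3, a chain of the collagen that coats muscle fibres, went from 6.81, 6.05 and 6.53 FPKM to 2.28, 1.74 and 1.69 (-1.37 ± 0.17, adjusted p = 0.00461). Its partner chains Col6a1 (-1.28 ± 0.25, adjusted p = 0.0305) and Col6a2 (-1.27 ± 0.28, adjusted p = 0.042) fell by similar amounts, with combination replicate 1 the highest of its group for both.

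Serpinh1, the collagen chaperone of the endoplasmic reticulum, went from 20.5, 24.6 and 23.0 FPKM to 10.9, 6.72 and 7.45 (-1.37 ± 0.22, adjusted p = 0.018). The basement membrane collagen gene Col15a1 fell by 0.96 on the log2 scale (adjusted p = 0.0305), and the fibrillin gene Fbn1 went from 5.03, 3.62 and 6.5 FPKM to 2.47, 1.45 and 1.6 (-1.08 ± 0.22, adjusted p = 0.0314). The main fibrillar collagen gene Col1a1 was at 33.6, 14.6 and 18.5 FPKM under HIIT and 8.42, 6.19 and 7.19 in the combination, a difference of -1.42 ± 0.36 with an adjusted p of 0.0572, and of 0.0158 with the replicate block. The Col6a3 call held with any library left out (highest adjusted p 0.0332). Without combination replicate 2 the adjusted p was 0.138 for Col3a1, 0.120 for Col6a1 and 0.0863 for Serpinh1. Depending on the library left out, 1 to 17 of the 39 genes were called, and without both replicates numbered 1 the number was 10. With the replicate block it was 18.

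Of 15 markers of fibroblasts and fibro-adipogenic cells, which make matrix, 4 fell, against 1.96% of all genes, and with the replicate block 8 did. All 15 stood below 0, with a median of -0.83. In 10 of them all combination libraries lay below all HIIT libraries, beside 18.7% of all genes. Dpt, which encodes the matrix protein dermatopontin, went from 44.0, 35.4 and 35 FPKM to 21.9, 16.1 and 18.7 (-0.98 ± 0.17, adjusted p = 0.0201). The surface markers Cd34 (-0.80 ± 0.15, adjusted p = 0.0254) and Ly6a (-0.96 ± 0.20, adjusted p = 0.0314) fell as well, and the fourth call was Col3a1. The summed level of the 15 markers was 1366, 619 and 962 FPKM under HIIT and 687, 496 and 459 in the combination, so HIIT replicate 2 lay below combination replicate 1. The list shares Col1a1, Col3a1, Dcn and Lum with the matrix list, and the part of the cell types in the matrix result was not tested. Without both replicates numbered 1, 2 of the 15 were called, with adjusted p of 0.0541 for Cd34 and 0.0607 for Ly6a.

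Markers of adipocytes, macrophages, hepatocytes and endothelial cells had no call. White adipocyte markers had a median of -0.75 over 16 genes, and 4 were lower and none higher at an unadjusted p of 0.05, where 20.4% of all genes were lower. With the replicate block 2 of the 16 were called lower, among them Car3 (adjusted p = 0.0454). Their summed level was 2776, 2550 and 2303 FPKM under HIIT and 1895, 1754 and 1505 in the combination. Car3, a carbonic anhydrase that muscle fibres of rodents express too, made up a large part of that sum, with 1360, 1496 and 1205 FPKM under HIIT and 679, 1122 and 879 in the combination. Adipoq, which is defining for fat cells, was at 77.6, 51.2 and 39.9 FPKM under HIIT, against 52.8, 15.7 and 10.7 in the combination, and the groups overlapped. Macrophage markers had a median of -0.77 over 11 genes, with 1 lower at an unadjusted p of 0.05. They summed to 182, 36.2 and 184 FPKM under HIIT and 104, 30.4 and 28.1 in the combination.

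Hepatocyte markers, which are made in the liver, had a median of -1.59 over 18 genes, none called and 5 lower at an unadjusted p of 0.05 (20.4% of all genes), and 1 was called lower with the replicate block. Alb, which encodes serum albumin, was at 178, 27.6 and 3.80 FPKM under HIIT, against 2.60, 3.46 and 0.773 in the combination. The list summed to 691, 313 and 111 FPKM under HIIT and 211, 89.4 and 59.6 in the combination. Its member Hp made up most of the combination sums, at 182, 213 and 78.7 FPKM under HIIT and 170, 61.9 and 48.1 in the combination. Within the combination, Hp and the sum were highest in replicate 1, but Alb was highest in replicate 2. Endothelial markers summed to 870, 479 and 553 FPKM under HIIT and 602, 231 and 228 in the combination, with a median of -0.23 and no call among 15 genes (4 lower at an unadjusted p of 0.05). Fabp4, which is also on the adipocyte list, made up most of that sum, with 699, 365 and 458 FPKM under HIIT and 485, 135 and 130 in the combination. The other 14 endothelial markers summed to 170, 114 and 94.6 FPKM under HIIT and 118, 96.1 and 98.1 in the combination, and the groups overlapped. Skeletal muscle fibre markers summed to 55027, 59127 and 49344 FPKM under HIIT and 54243, 57923 and 56293 in the combination, and the median of the 12 genes was -0.02. Of these genes 5 stood above 0 and 7 below. Ttn was at 94.5, 102 and 92.1 FPKM under HIIT and 106, 68.8 and 58.0 in the combination. Combination replicates 2 and 3 were the lowest of all 12 libraries for Ttn. Neb was at 676, 767 and 438 FPKM under HIIT and 763, 515 and 350 in the combination. A part of RNA quality in this was not tested. Lymphocyte markers had 0 of 11 and kidney markers 0 of 8 genes past the filter, with sums of at most 1.00 FPKM in these 6 libraries. HIIT replicate 1 was the highest of the 6 for the fibroblast, adipocyte, hepatocyte and endothelial sums, and combination replicate 1 the highest of its group. Leaving out both, a choice made after these values were seen, gave 703 calls, 165 higher and 538 lower, and 215 of the 321 were among them.

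**Figure D3:**
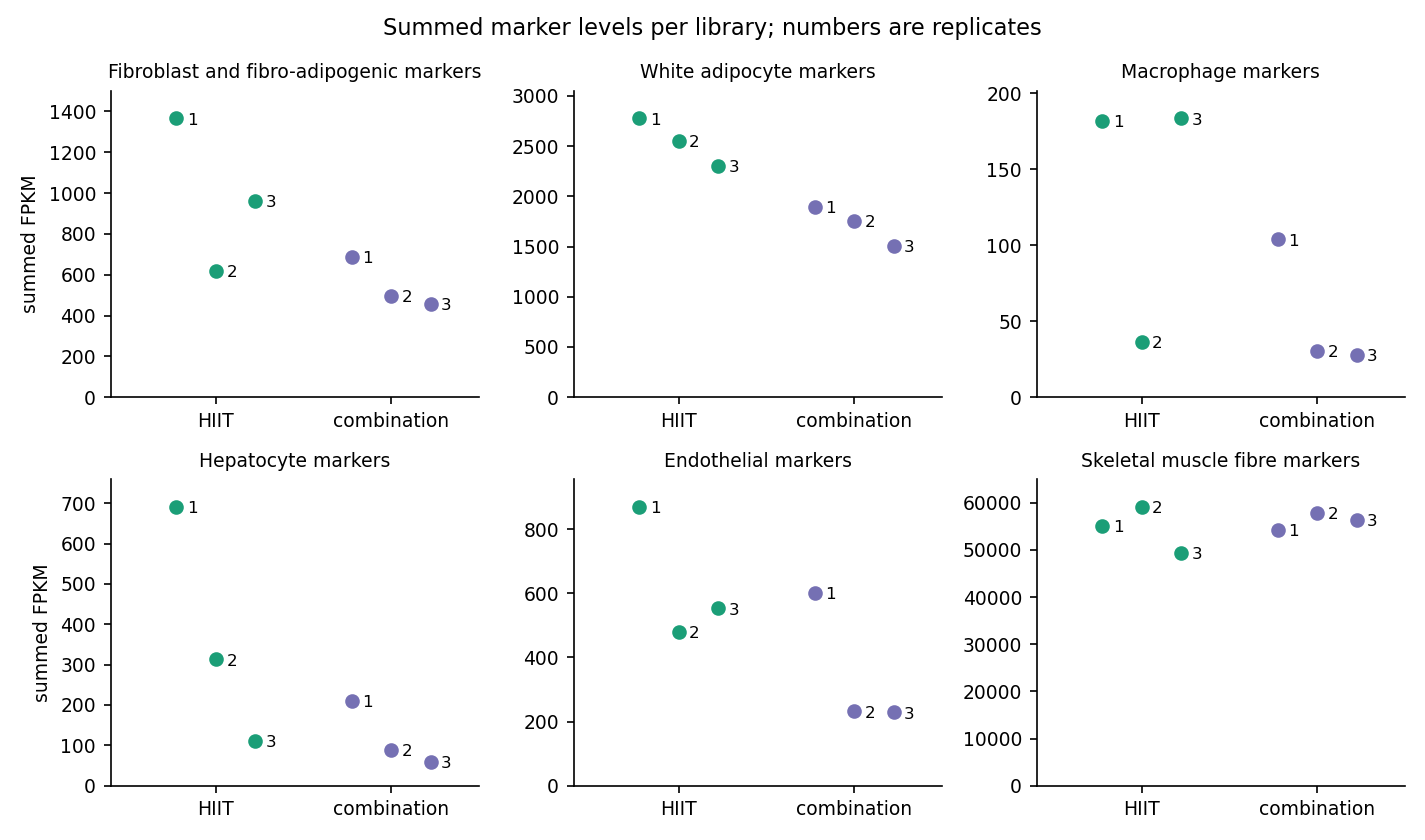
Summed FPKM of 6 marker lists in the 6 libraries compared, with linear axes from 0 and points numbered by replicate. Fibroblast markers ran from 619 to 1366 FPKM under HIIT and from 459 to 687 in the combination. Muscle fibre markers ran from 49344 to 59127 and from 54243 to 57923. The groups overlapped in both lists. The endothelial and adipocyte sums both contain Fabp4.

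Of 22 actin and SRF target genes, 2 fell, Actg1 and Mrtfa, against 1.96% of all genes called lower. None rose, and the median was -0.41. At an unadjusted p of 0.05, 10 were lower and 3 higher, beside 20.4% and 6.7% of all genes. With the replicate block 6 were called lower and 3 higher. Actg1, a cytoplasmic actin, was at 109, 98.3 and 98.0 FPKM under HIIT, against 46.8, 28.4 and 34.3 in the combination, and every HIIT library held more than every combination library by a wide margin (-1.48 ± 0.17, adjusted p = 0.00417). Its transcript has close pseudogenes, so the absolute level is uncertain. Mrtfa, the actin-sensing coactivator of SRF, went from 7.23, 9.19 and 7.59 FPKM to 1.85, 2.35 and 2.02 (-1.55 ± 0.20, adjusted p = 0.00526). Both calls held with any library left out. The other cytoplasmic actin, Actb, was at 132, 113 and 110 FPKM under HIIT and 108, 69.3 and 55.1 in the combination (-0.66 ± 0.21, adjusted p = 0.088, and 0.0437 with the replicate block). The sarcomeric actin Acta1, the main actin of the fibre, differed by -0.01 ± 0.11 (interval -0.25 to 0.24).

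Further actin regulators were among the called genes with the largest decrease. Avil, an actin-severing protein of the villin family, went from 6.67, 3.14 and 3.63 FPKM to 1.49, 0.559 and 0.645 (-1.51 ± 0.27, adjusted p = 0.0205). Arpc1b, a subunit of the complex that nucleates branched actin, went from 13.9, 9.37 and 11.9 FPKM to 5.80, 2.99 and 3.37 (-1.36 ± 0.27, adjusted p = 0.0314). Tmsb10, a thymosin that binds actin monomers, went from 20.3, 13.6 and 17.0 FPKM to 8.06, 4.37 and 6.44 (-1.32 ± 0.26, adjusted p = 0.0303). In all 3 genes combination replicate 1 was the highest of its group, and the groups did not overlap. Which cells of the muscle the actin differences come from was not tested. Without combination replicate 2 the adjusted p rose to 0.0969 for Avil, 0.130 for Arpc1b and 0.115 for Tmsb10.

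The window upstream of Actg1 is shown because it holds a CArG box, the motif that SRF is known to bind, searched by that name on both strands. It is chr11:120348496-120348745 on the minus strand of GRCm38.p6, the 250 bases before the RefSeq start, with the match in capitals.
Actg1: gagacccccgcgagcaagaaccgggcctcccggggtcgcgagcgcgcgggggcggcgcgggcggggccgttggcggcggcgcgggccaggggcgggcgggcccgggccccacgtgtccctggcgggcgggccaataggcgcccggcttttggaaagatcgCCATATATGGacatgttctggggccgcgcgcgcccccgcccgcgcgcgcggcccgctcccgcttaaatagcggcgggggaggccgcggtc
The match lies at bases 90 to 81 before the start. A CArG box was found in 482 of 32851 windows (1.47%) and, counted per gene, in 120 of 8317 genes tested (1.44%). It was found in 3 of 166 genes called lower (Actg1, Bcl2l12 and Cbr2) and in 3 of 91 called higher (Mknk2, Filip1 and Dmd). Cbr2 and Dmd had an adjusted p of 0.0607 and 0.0539 with the replicate block. Whether SRF occupies it in these animals was not tested.

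Several muscle genes of metabolism and secretion were lower in the combination. Nmrk2, a kinase that makes NAD precursors from nicotinamide riboside and is largely confined to striated muscle, had the largest decrease of all calls. It was at 20.8, 28.8 and 44.0 FPKM under HIIT, against 6.05, 5.35 and 5.67 in the combination (-2.20 ± 0.30, adjusted p = 0.00921, and 0.0521 without combination replicate 2). The combination libraries were nearly equal while the HIIT libraries spread. Nmrk2 was the single call among 17 genes of NAD metabolism, beside 1.96% of all genes called lower, and the replicate block gave 2. Ostn, which encodes the myokine musclin, was at 77.1, 159 and 75.6 FPKM under HIIT, against 42.3, 32.5 and 43.4 in the combination (-1.30 ± 0.27, adjusted p = 0.0323), with an adjusted p of 0.120 under the replicate block. Tfrc, the transferrin receptor that brings iron into cells, went from 37.6, 31.0 and 36.6 FPKM to 17.1, 9.78 and 13.6 (-1.34 ± 0.29, adjusted p = 0.0404, and 0.155 without combination replicate 2). Slc6a6, the taurine transporter, fell by 0.47 on the log2 scale, from 25.0, 27.1 and 25.7 FPKM to 20.3, 16.9 and 18.2 (adjusted p = 0.0254).

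Calm2, which encodes the calcium sensor calmodulin, went from 97.6, 91.7 and 95.5 FPKM to 60.9, 51.1 and 51.6 (-0.79 ± 0.08, adjusted p = 0.00398). Sec14l5, a member of the lipid-transfer SEC family, went from 7.49, 6.76 and 5.37 FPKM to 2.23, 1.04 and 1.65 (-1.53 ± 0.18, adjusted p = 0.00461). Both kept their calls with any library left out. Aimp2, a scaffold of the complex of aminoacyl-tRNA synthetases, went from 57.9, 71.5 and 59.3 FPKM to 37.8, 40.2 and 33.7 (-0.74 ± 0.11, adjusted p = 0.0118). Among 26 genes of growth control by myostatin, activin and IGF, Acvr1b was the one call upward and 2 fell, the IGF binding protein gene Igfbp5 by 1.23 on the log2 scale (adjusted p = 0.0352, and 0.0713 with the replicate block) and Fstl1, a secreted follistatin-like protein, by 1.15 (adjusted p = 0.0359). Of all genes, 1.05% were called higher and 1.96% lower. The replicate block called 2 of the 26 higher and 5 lower. Leaving out 1 library took the adjusted p of Igfbp5 up to 0.125 and that of Fstl1 up to 0.142. Prkaa1, a catalytic subunit of the energy sensor AMPK, fell by 0.57 (adjusted p = 0.0404). It was the single call among 25 genes of mitochondrial biogenesis and dynamics, beside 1.96% of all genes called lower. The AMPK target Ppargc1a was level at -0.00 ± 0.15. Only 3 of the 12 fits with 1 library left out called Prkaa1, and its adjusted p there reached 0.143.

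Of 21 clock and clock output genes, 2 fell, against 1.96% of all genes called lower, and none rose. The list moved both ways, with differences from -1.28 to 0.51, 13 genes below 0 and 8 above. At an unadjusted p of 0.05, 8 were lower and 4 higher, beside 20.4% and 6.7% of all genes. After TMM rescaling 2 were called higher and 2 lower. Nr1d1, which encodes the repressor REV-ERB of the clock, was at 53.3, 56.3 and 52.1 FPKM under HIIT, against 31.7, 21.6 and 26.8 in the combination (-1.0 ± 0.17, adjusted p = 0.020). Dbp, a direct output gene of the clock, was at 25.6, 34.1 and 19.3 FPKM under HIIT, against 10.7, 7.89 and 11.6 in the combination (-1.28 ± 0.28, adjusted p = 0.042). Neither overlapped between the groups. The core activator Bmal1 differed by -0.25 ± 0.19 (adjusted p = 0.413) and Per3 by -0.51 ± 0.22 (adjusted p = 0.166). Dbp had an adjusted p of 0.0582 under the replicate block and 0.156 without combination replicate 2, and Nr1d1 0.0882 without combination replicate 2.

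**Figure D4:**
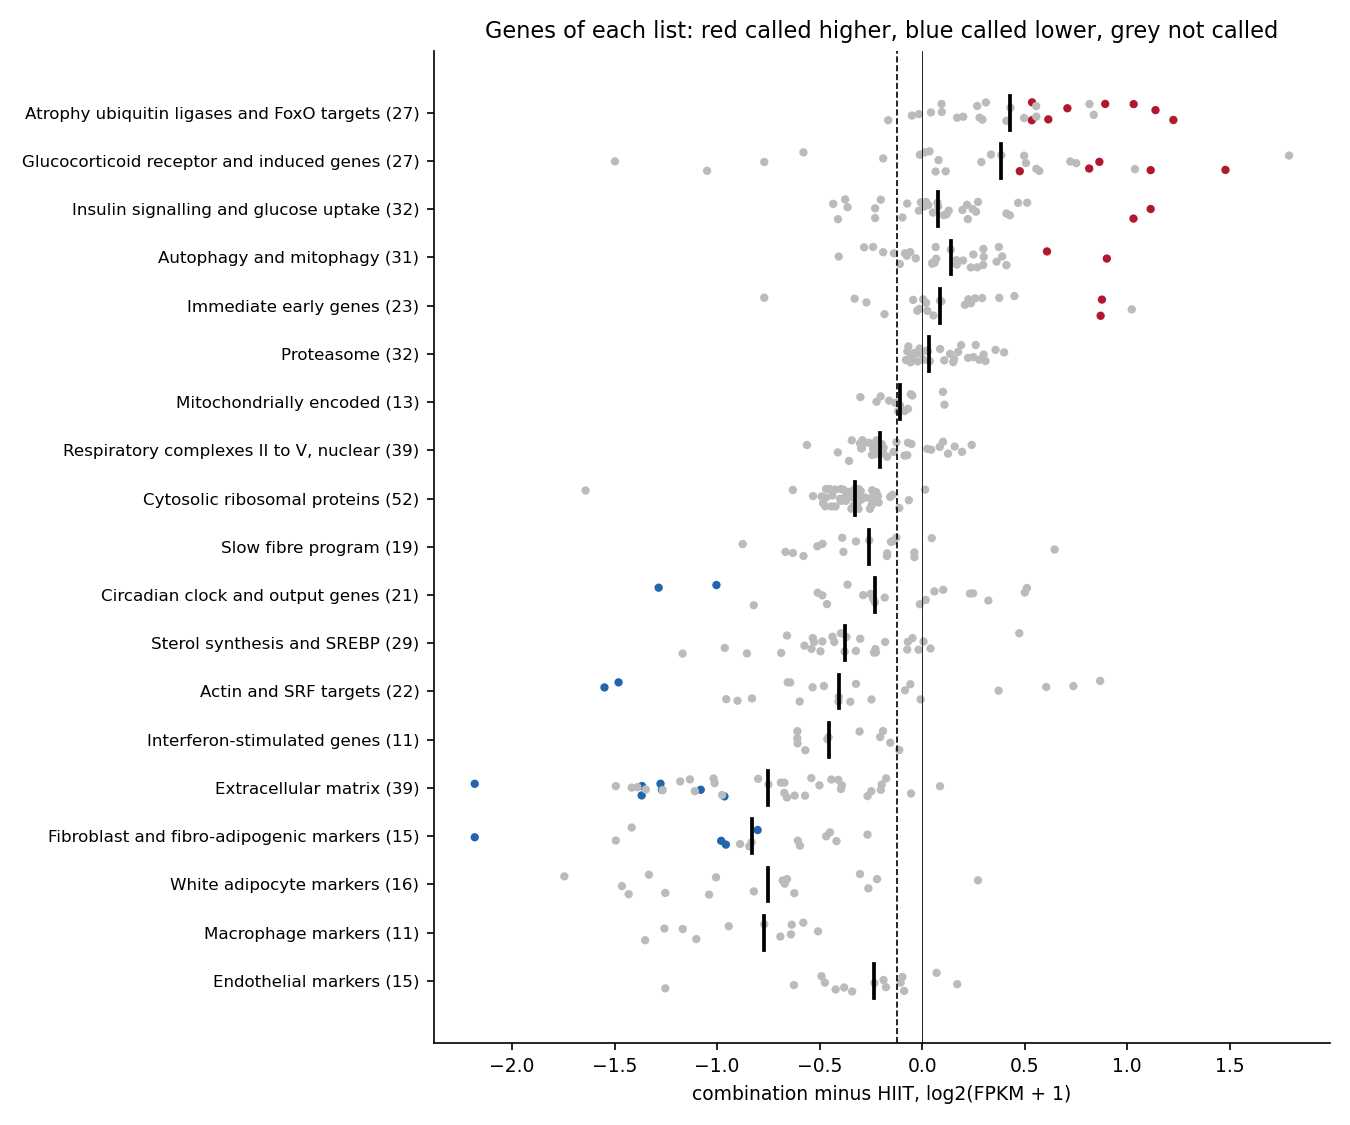
Log2 difference (combination minus HIIT) of every tested gene in 19 lists, with the number tested in brackets, thick bars at list medians and a dashed line at the median of all genes (-0.12). Red points were called higher and blue points lower. The FoxO list has its median at 0.43 and the extracellular matrix list at -0.75.

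Fibre type, fat oxidation and respiration gave no calls. None of 19 slow-fibre genes passed in limma (1 higher at an unadjusted p of 0.05), and none of 20 fast-fibre genes did (3 higher). Myh4 was at 6286, 7225 and 4669 FPKM under HIIT, against 7427, 8898 and 7165 in the combination (0.39 ± 0.18, adjusted p = 0.182), with overlapping groups. None of 32 PPAR targets of fat oxidation passed (1 higher and 3 lower at an unadjusted p of 0.05). With the replicate block 1 slow-fibre gene was called higher and 1 lower, 1 fast-fibre gene higher and 1 PPAR target lower. Pdk4, the kinase that spares glucose in fasting muscle, was at 420, 62.1 and 500 FPKM under HIIT, against 491, 286 and 299 in the combination, and HIIT replicate 2 lay far below the other 5 libraries. The interval of its difference, -0.85 to 1.97, leaves room for large changes in both directions. The fatty acid importer gene Cpt1b was level, with an interval of -0.39 to 0.36.

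Nuclear genes of respiratory complex I had a median of -0.17 over 36 genes, and those of complexes II to V -0.20 over 39, both near the -0.12 of all genes. No gene of either list passed in limma, and 10 and 9 were lower at an unadjusted p of 0.05, with 1 and none higher, where 20.4% and 6.7% of all genes were lower and higher. The replicate block called 1 gene of complexes II to V lower. The 13 mitochondrially encoded genes had a median of -0.11, which became 0.01 after TMM rescaling, and none passed at an adjusted or unadjusted p of 0.05. Cytosolic ribosomal protein genes had a median of -0.33, and 51 of 52 stood below 0. None passed at an adjusted p of 0.05 in limma and 35 were lower at an unadjusted p of 0.05, while without combination replicate 1 the number called lower was 29 and with the replicate block 3. After TMM rescaling the median was -0.21 and 1 was called. Many ribosomal protein genes have pseudogenes, so their levels are uncertain. Sterol synthesis genes had a median of -0.38 over 29, with no call and 11 lower and 1 higher at an unadjusted p of 0.05. Without combination replicate 1, 7 of them were called lower, and with the replicate block 3 were called lower and 1 higher.

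The same drug without training gave a separate set of values, since semaglutide minus control shares no library with combination minus HIIT, although both use the same estimate of the spread. In that comparison 397 genes were called (3.72%), 121 higher (1.13%) and 276 lower (2.59%). The number was 33 without control replicate 1 or semaglutide replicate 1, 55 to 59 without control replicate 2 or semaglutide replicates 2 and 3, and 16 with the replicate number as a block in those 6 libraries. Leaving out combination replicate 2 or 3, which affects only the spread, gave 112 and 127, so the shares of shared calls given next depend on single libraries. Of the 276, 15 were hepatocyte markers. Of the 112 genes higher in the combination than under HIIT, 108 (96.4%) also stood above 0 under semaglutide against control, where 41.5% of all genes did. Calls in the same direction were made for 49 of them, which is 43.8% of the 112 and 40.5% of the 121. Of the 209 lower genes, 199 (95.2%) stood below 0 without training, where 58.5% of all genes did. There 36 were also called lower, 17.2% of the 209 and 13.0% of the 276, and 1 was called higher.

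The size of the difference was larger with training for most of the genes called with training, which choosing genes by that comparison favours. The median was 0.64 with and 0.47 without training for the 112, and -0.67 and -0.33 for the 209. Fbxo32 rose by 1.38 ± 0.20 without training (adjusted p = 0.0113), beside 1.23 with it. Mrtfa fell by 1.23 on the log2 scale without training (adjusted p = 0.0131), beside -1.55 with it. Nr1d1 differed by -1.0 in both. Matrix genes had fewer calls without training, with 1 of 39 lower and a median of -0.46. Col3a1 differed by -1.43 ± 0.44 without training (adjusted p = 0.11), and Serpinh1 by -0.55 ± 0.22 (adjusted p = 0.205). HIIT minus control, which had 0 calls, went the opposite way for 93 of the 112 and 172 of the 209. Its median over the matrix list was 0.33. It shares the HIIT libraries with combination minus HIIT, which favours opposite signs.

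No difference between the effects of semaglutide with and without training passed the test. The interaction had 0 calls among 10666 genes in limma (0% called), 822 at an unadjusted p of 0.05, and a smallest adjusted p of 0.0806. It had 24 calls without combination replicate 1 and 6 without both replicates numbered 1. Actg1, 3425401B19Rik, Serpinh1, Col6a3 and Ache each had an adjusted interaction p of 0.632. The effects with and without training were -1.48 and -0.58 for Actg1, 1.11 and 0.33 for 3425401B19Rik, and 0.70 and -0.04 for Ache. At 3 libraries per group these pairs of values are not shown to differ, nor are they shown to be alike.

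**Figure D5:**
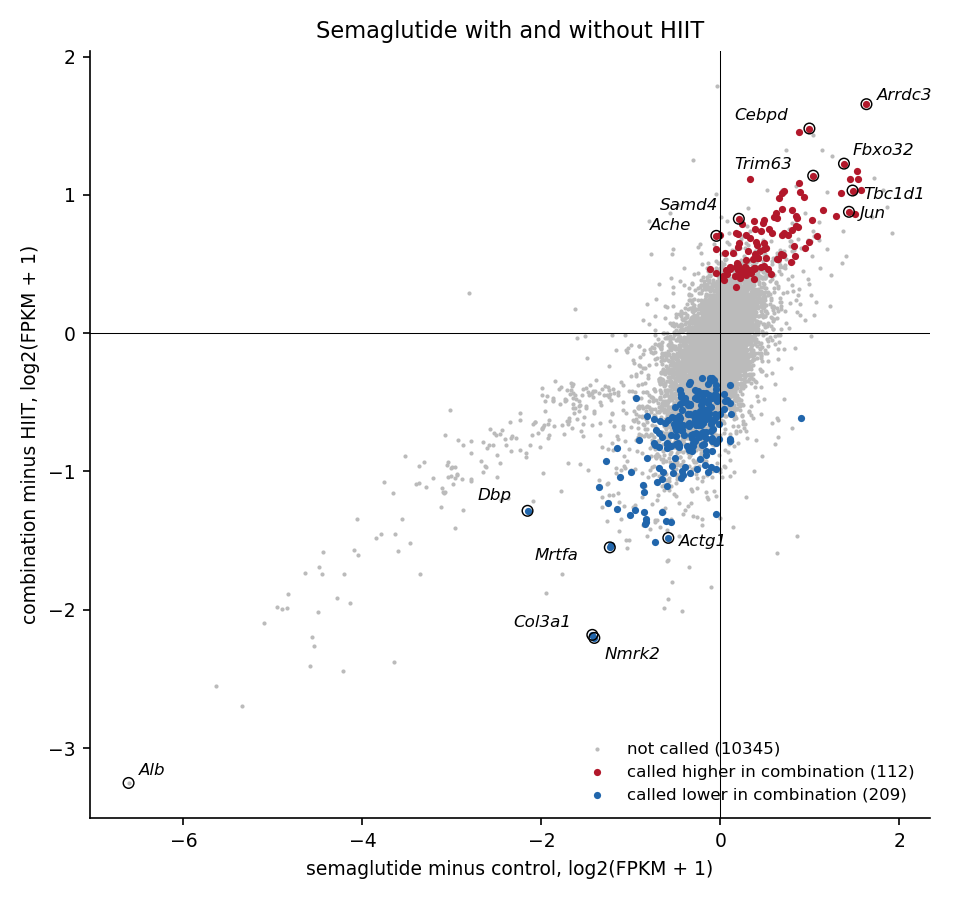
Log2 difference of every gene tested for semaglutide without HIIT (semaglutide minus control) and with HIIT (combination minus HIIT), comparisons that share no library, with genes called under HIIT coloured. Of the genes called, 108 of 112 higher and 199 of 209 lower have the same sign on both axes.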

How the data were processed

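The authors deposited FPKM values per gene for 12 libraries, per the labels' protocols from stranded poly(A) libraries sequenced in pairs. Per the submitters' processing notes, CASAVA, FastQC, Trimmomatic 0.36, STAR 2.7.9a, featureCounts 2.0.1 and StringTie 2.1.4 were used with GRCm39. Which tool gave the FPKM, and with which annotation, is not given in the sources used here.

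FPKM are not counts, so no count model was fitted. Genes whose FPKM reached 1 in 3 or more libraries were tested on log2(FPKM + 1), a scale that understates changes of weakly expressed genes. limma 3.58.1 in R 4.3.3, with a trended and robust prior, fitted 4 group means to all 12 libraries, which then share 1 estimate of the spread. limma's tests were two-sided and adjusted by Benjamini and Hochberg over 10666 genes, with a threshold of 0.05. The script was tested on simulated data. TMM factors (trimmed mean of M values) were computed from the FPKM of the genes tested. Intervals are 95% intervals from limma. Depth was estimated from the steps of low FPKM values with transcript lengths of GENCODE M21, which is another build, and limits the precision of values near 1 FPKM. Alternatives were other pseudocounts, filters and scalings, a replicate block and leaving out each library.

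The labels do not describe the animal of each library, so a p-value reflects only how these samples spread, which may be technical. Equal replicate numbers of HIIT and combination deviated together from their group means (correlations of 0.224 to 0.294, against -0.241 to 0.0493 for unequal numbers). No label says what the numbers share, and over all 18 pairs of the 4 groups the range was -0.226 to 0.294. The block within the 6 libraries compared is therefore given beside the results whose calls it changes.

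The comparison, the 42 pathway lists and the 17 marker lists were chosen with earlier results of these data known. Named genes were the 12 higher and 12 lower calls with the largest difference whose libraries lay apart, up to 3 called genes per list or else the one with the smallest p, 25 fixed genes of muscle metabolism and the 3 most abundant genes of each marker list. Further called members were named to complete the counts of lists, and Calm2, the genes listed as called whichever library was left out and the genes with motif matches were picked after their values were seen. A few genes that the rule selects are not reported here. Promoter windows are those of RefSeq.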

Additional observations from a re-analysis of the deposited data

How the results depend on the processing

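For combination against HIIT, where 321 genes were called, no filter gave 195 calls among 17513 genes. In all 321 the groups did not overlap, so leaving out 1 library could not turn a direction, and the replicate block leaves the differences as they are. TMM rescaling gave 634, only the 6 libraries compared gave 9, and leaving out both replicates numbered 1 gave 703. The replicate block gave 791 with 6 libraries and 335 with 12. With 1 library left out the number ran from 18 to 1574. Semaglutide against control gave 208 calls under the stricter filter, 168 with only its 6 libraries, 16 with those and the replicate block, 673 without both replicates numbered 1, and 33 to 552 with 1 library left out. The interaction gave 6 calls without both replicates numbered 1 and 0 to 24 with 1 library left out. Of the 52 named genes called, 48 kept the call after TMM rescaling, 45 with the block in 6 libraries, 44 with the block in 12, 36 without both replicates numbered 1 and 7 with only the 6 libraries. The 7 lost with the block in 6 libraries were Arrdc3, Atp6v1f, Cebpb, Dbp, Igfbp5, Klhl38 and Ostn. With the block in 12 libraries Ache, Atp6v1f, Cebpd, Col3a1, Dbp, Pik3r1, Sqstm1 and Tfrc were lost (adjusted p = 0.052 to 0.0632), as were Col6a2, Foxo3 and Metap2 among other genes given. The cause was not tested beyond the construction of each fit. Depth limits values near 1 FPKM, such as those of Avil.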

Other observations

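Interferon-stimulated genes and antigen presentation had no call in limma. All 11 interferon-stimulated genes tested stood below 0, where 67.6% of all genes did, with a median of -0.46, and 5 were lower at an unadjusted p of 0.05, beside 20.4% of all genes. Irf9, a subunit of the interferon-activated transcription factor, was at 2.83, 2.22 and 1.74 FPKM under HIIT, against 1.21, 1.14 and 1.02 in the combination (-0.61 ± 0.15, limma SE, adjusted p = 0.0559, and 0.0392 with the replicate block, which called 3 of the 11). All 14 antigen presentation genes stood below 0, also with a median of -0.46, and 6 were lower at an unadjusted p of 0.05, with 1 called under the replicate block. The macrophage markers, at 182, 36.2 and 184 FPKM in sum under HIIT and 104, 30.4 and 28.1 in the combination, stood beside them, and their part was not tested. Genes of the TCA cycle (26), branched-chain amino acid catabolism (25) and glycolysis and glycogen (30) had no call in limma, with 2, 3 and 4 higher and 0, 0 and 1 lower at an unadjusted p of 0.05. With the replicate block 2 glycolysis and glycogen genes were called lower.

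Some genes called under semaglutide without training were not called with it. Cdkn1a, an inhibitor of the cell cycle, was at 29.1, 65.6 and 47.2 FPKM under HIIT, against 82.3, 81.7 and 78.8 in the combination (0.84 ± 0.25, adjusted p = 0.078), and rose by 1.69 ± 0.25 without training (adjusted p = 0.0121). Mt2, a metallothionein induced by metals and glucocorticoids, was at 33.8, 64.4 and 32.9 FPKM under HIIT, against 104, 47.8 and 66.9 in the combination (0.72 ± 0.33, adjusted p = 0.193), and rose by 1.92 without training (adjusted p = 0.0247). Both had an adjusted interaction p of 0.632, so the effects were not shown to differ. These 2 genes were picked after their values were seen.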
